A study of Rattus norvegicus with 6 samples.

Results

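The genes described here mark the posterior lobe of the pituitary gland, its resident glia and related glial cells. The 9 members were found by gene symbol: the neurohypophysial hormone genes Avp and Oxt, the pituicyte transcription factor genes Nkx2-1, Rax and Lhx2, the glial genes Gfap, Aqp4 and Slc1a3, and Crym. All 9 were present among the 33294 gene symbols listed, and all 9 were among the 17292 genes that passed the filter on low counts.

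RNA sequencing was carried out on pituitary glands of adult male Sprague-Dawley rats aged 11 weeks, with 1 library per rat. The nicotine group held 3 offspring of dams that carried a subcutaneous pump with nicotine tartrate (6 mg/kg per day) during pregnancy, and the control group held 3 offspring of dams whose pump held saline. The dam and litter of each rat are not given in the sources used here, so littermates cannot be told from unrelated rats and the p-values measure only the spread between these libraries. How the gland was dissected, and whether both lobes were taken whole, is not given either. The labels' extraction text describes testis, but the pituitary hormone genes Gh1 and Prl were at 52429 to 115788 and 17547 to 38038 CPM. Totals lay between 28318383 and 85977002 counts per library, with the most in nicotine 2 and the fewest in control 1, so that 1 count was worth 0.0109 to 0.0369 CPM (CPM, counts scaled by library size after TMM normalization, the unit of every level below).

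The posterior lobe is neural tissue. Axons of large hypothalamic neurons end there and release vasopressin and oxytocin into fenestrated capillaries, while the cell bodies of these neurons, and most of their hormone mRNA, stay in the hypothalamus. Pituicytes are the astrocyte-like glia that surround the endings, and Nkx2-1, Rax and Lhx2 are needed for the lobe to form from the floor of the embryonic diencephalon. In bulk tissue, fewer cells of a type and less RNA per cell cannot be told apart.

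Avp and Oxt lie next to each other on rat chromosome 3 on opposite strands, with 0 other genes listed between them in RefSeq. Their upstream sequences are shown because the levels of the 2 hormone genes followed each other over the rats. The letters are the 250 bases before each RefSeq start site in build GRCr8, a later build than that of the counts, written 5′ to 3′ on the strand of the gene. Capitals mark CANNTG (an E-box, the site of basic helix-loop-helix factors) and TGACCT (a half-site of nuclear receptors), each searched on both strands, and no marked site overlapped another.
Avp, chr3:138248523-138248772, minus strand: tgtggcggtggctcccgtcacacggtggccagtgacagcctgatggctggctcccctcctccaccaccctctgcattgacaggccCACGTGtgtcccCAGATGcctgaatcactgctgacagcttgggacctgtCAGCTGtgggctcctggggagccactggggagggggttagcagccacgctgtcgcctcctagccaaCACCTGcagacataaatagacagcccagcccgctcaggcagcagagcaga
Oxt, chr3:138235504-138235753, plus strand: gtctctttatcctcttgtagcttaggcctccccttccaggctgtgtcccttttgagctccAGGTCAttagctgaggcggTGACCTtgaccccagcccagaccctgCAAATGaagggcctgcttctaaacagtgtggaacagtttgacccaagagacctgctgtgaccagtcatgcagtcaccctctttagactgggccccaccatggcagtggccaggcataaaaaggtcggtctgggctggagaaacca

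The Avp window held 4 E-boxes and 0 half-sites. The Oxt window held 1 E-box, at positions -145 to -140, and 2 half-sites, at -190 to -185 (spelled AGGTCA, the other strand) and at -171 to -166. An E-box occurred in 65.5% of 33356 promoter windows of this length and a half-site in 14.1%. CTCAAG, the core bound by NKX2-1, occurred in 13.4% of windows, in neither hormone window, once in that of Nkx2-1 itself, 2 times in that of Rax and once in 1 of the 2 windows of Aqp4. TAATTA, a core bound by LIM and paired-like homeodomain proteins such as LHX2 and RAX, occurred in 4.87% of windows and in none of the 11 windows of the 8 members with a promoter entry, and the cyclic AMP response element TGACGTCA occurred in 1.59% and in none of these 11.

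Avp encodes the precursor of vasopressin, the hormone of water retention. Its level was 35.7, 129 and 33.6 CPM in nicotine 1, 2 and 3, and 32.3, 6.56 and 2.72 CPM in control 1, 2 and 3. Nicotine 2 stood far above the rest and control 3, with 103 counts, was at the bottom. Nicotine 1, nicotine 3 and control 1 were neighbours whose 95% Poisson counting intervals (34.02 to 37.5, 32.2 to 35.1 and 30.2 to 34.5 CPM) overlapped from one to the next. These intervals cover counting error only.

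Oxt encodes the precursor of oxytocin, the hormone of milk ejection and labour. Its level was 32.7, 73.9 and 31.6 CPM after nicotine and 31.2, 13.0 and 2.67 CPM in controls. The order of the 6 libraries was the same as for Avp, and the lowest nicotine library exceeded the highest control library by less than the counting error of either.

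The pituicyte factors repeated this order at its ends. Nkx2-1 encodes a homeodomain protein of the ventral forebrain. Its level was 2.44, 4.70 and 3.16 CPM after nicotine and 2.07, 1.36 and 0.185 CPM in controls. The value of control 3 rested on 7 counts, with a counting interval of 0.0743 to 0.381 CPM that lay below the interval of every other library.

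Rax, a retina and anterior neural fold homeobox gene expressed by pituicytes, was at 5.16, 11.2 and 6.31 CPM after nicotine and at 5.69, 2.97 and 0.291 CPM in controls. Lhx2, which encodes a LIM homeodomain protein, was at 4.05, 7.90 and 6.79 CPM after nicotine and at 4.91, 2.42 and 0.660 CPM in controls. For both genes control 1 lay above nicotine 1, so the groups overlapped. Control 3 held 11 counts of Rax and 25 of Lhx2.

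Gfap did not have its extremes in the same libraries as the pituicyte factors. Aqp4 shared their highest library, nicotine 2, but was lowest in nicotine 1 and not in control 3. Gfap, which encodes the intermediate filament of astrocytes, was at 4.46, 4.21 and 6.00 CPM after nicotine and at 3.10, 14.8 and 4.70 CPM in controls, so that control 2 alone stood out. Aqp4, the water channel of astrocyte end-feet, was at 7.21, 11.0 and 10.5 CPM after nicotine and at 7.53, 9.32 and 9.35 CPM in controls. Control 3, which nearly lacked Rax, thus held Aqp4 near the median of the libraries.

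Slc1a3 encodes the glutamate and aspartate transporter GLAST. Its level was 73.6, 97.2 and 106 CPM after nicotine and 92.2, 80.2 and 61.3 CPM in controls. Crym encodes mu-crystallin, a cytosolic protein that binds thyroid hormone. Its level was 11.4, 37.1 and 18.6 CPM after nicotine and 17.2, 14.1 and 6.89 CPM in controls. For both genes control 3 was lowest, but the range was narrower than that of the hormone and pituicyte factor genes.

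**Figure D1:**
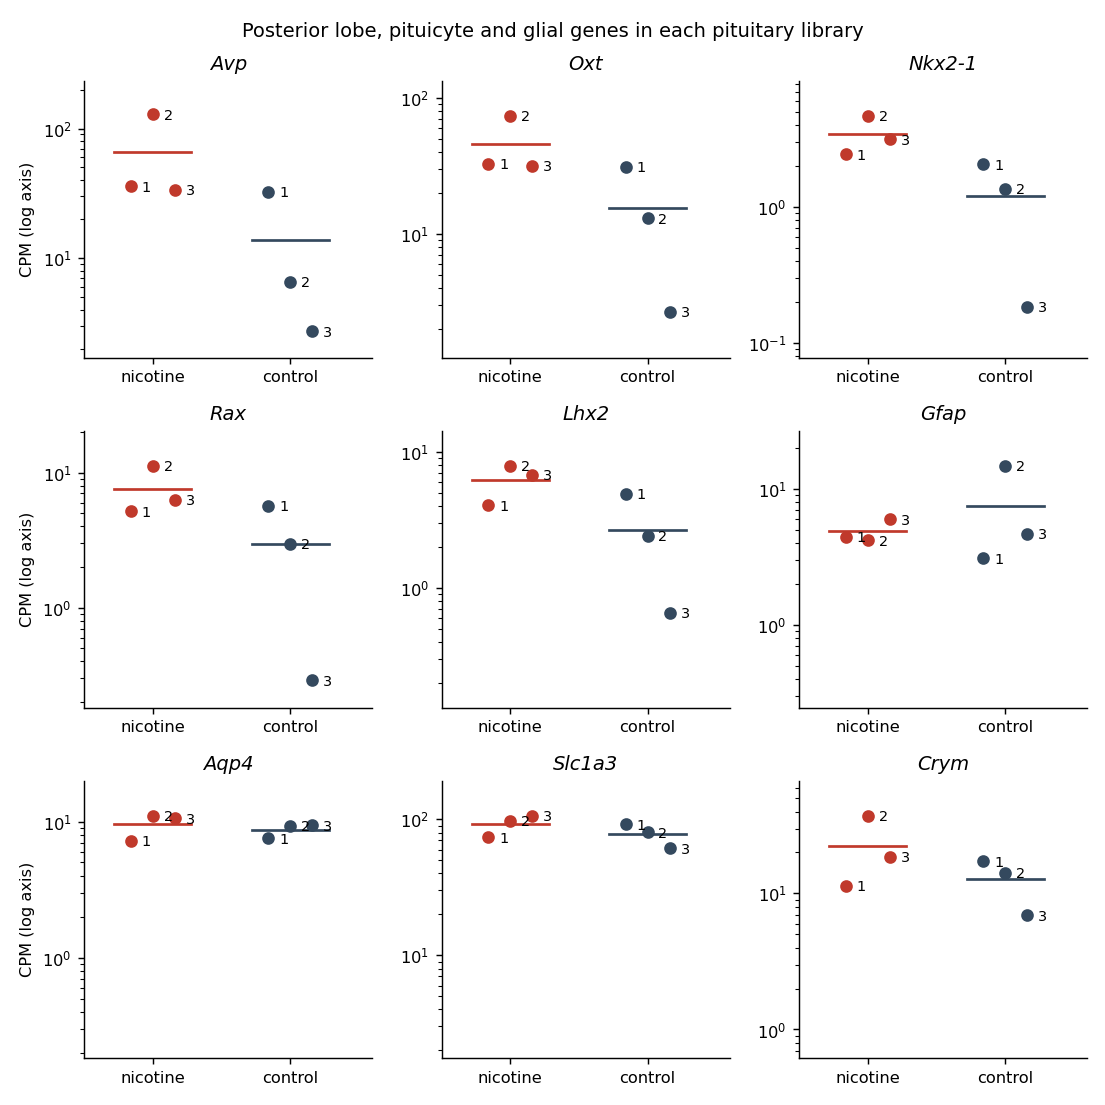
Level of each of the 9 genes (CPM, log axis) in the 3 nicotine and 3 control libraries, numbered by replicate; the horizontal line is the group mean. Nicotine 2 is highest and control 3 lowest for Avp, Oxt, Nkx2-1, Rax, Lhx2 and Crym, whereas Gfap is highest in control 2 and Aqp4 and Slc1a3 vary little.

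The spread over rats separated the genes. The highest library exceeded the lowest 47.5-fold for Avp, 38.7-fold for Rax, 27.7-fold for Oxt, 25.4-fold for Nkx2-1 and 12.0-fold for Lhx2. The same ratio was 5.38 for Crym, 4.77 for Gfap, 1.73 for Slc1a3 and 1.52 for Aqp4, against a median of 1.70 over all genes tested. By the SD of log2 CPM over the 6 libraries, the former 5 genes all lay in the top 1% of genes tested, Crym and Gfap in the top 10%, and Slc1a3 and Aqp4 above 51.7% and 40.7% of genes. Much of this spread lay within the control group, where the highest library exceeded the lowest 19.6-fold for Rax, 11.9-fold for Avp, 11.7-fold for Oxt and 11.2-fold for Nkx2-1. Within the nicotine group these folds were 2.18, 3.84, 2.34 and 1.93.

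To ask whether prenatal nicotine changed these genes, all 17292 genes were tested between the groups by quasi-likelihood in edgeR. Calls required a Benjamini-Hochberg adjusted p under 0.1 and more than a 1.5-fold change. In this test 0 of the 9 members were called, as were 0% of all genes tested. DESeq2, the tool of the study, called 0 of the 9 members against 0.347% of genes. The point estimates were nevertheless large for the hormone and pituicyte factor genes. Avp averaged 66.2 ± 54.6 CPM in the nicotine group (SD, n = 3) against 13.9 ± 16.1 CPM in the control group (SD, n = 3). This gave a log2 fold change of 2.28 ± 0.77 (standard error), with a 95% interval of 0.58 to 3.98 and an edgeR adjusted p of 0.760.

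Oxt averaged 46.1 ± 24.1 CPM in the nicotine group (SD, n = 3) against 15.6 ± 14.4 CPM in the control group (SD, n = 3), or 1.58 ± 0.63 (standard error) on the log2 scale with an edgeR adjusted p of 0.806. Nkx2-1 averaged 3.43 ± 1.16 CPM in the nicotine group (SD, n = 3) against 1.205 ± 0.951 CPM in the control group (SD, n = 3), or 1.57 ± 0.53 (standard error) on the log2 scale with an edgeR adjusted p of 0.760. The log2 fold change was 1.40 (standard error 0.62) for Rax and 1.29 (standard error 0.50) for Lhx2. It was 0.82 (standard error 0.41) for Crym, 0.24 (0.20) for Slc1a3, 0.13 (0.22) for Aqp4 and -0.66 (0.46) for Gfap. The 95% intervals of the latter 4 genes included 0, from -0.35 to 0.62 for Aqp4 and from -0.19 to 0.68 for Slc1a3, so changes up to these limits were not distinguished from none.

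An unadjusted p under 0.05 was reached by 5 of the 9 genes in edgeR (Avp, Oxt, Nkx2-1, Rax and Lhx2), all with a higher mean after nicotine. Over all genes tested 6.14% reached it, 3.13% with a higher and 3.01% with a lower mean. Since these genes follow one another over rats, as described below, they are not 5 separate observations. The groups did not overlap for 3 of the 9 (Avp, Oxt and Nkx2-1), against 11.3% of all genes, and for each of these the exact two-sided permutation test gave p = 0.1, and no split of 6 libraries into 3 and 3 can give a smaller one.

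Single libraries decided these values. With nicotine 2 left out, only Nkx2-1 kept an unadjusted p under 0.05 (1 gene in place of 5), and the log2 fold change was 1.37 for Avp, 1.07 for Oxt and 1.01 for Rax. With control 3 left out 3 genes kept it, and the log2 fold change was 0.86 for Rax and 0.82 for Lhx2. The number was also 3 without nicotine 3 and 2 without control 2. Conversely, the log2 fold change of Avp reached 3.82 without control 1. With nicotine 2 and control 3 both left out, an alternative chosen after the values were seen, the log2 fold change was 0.87 for Avp, 0.77 for Nkx2-1, 0.64 for Lhx2, 0.56 for Oxt, 0.46 for Rax and -0.062 for Crym, and 1 gene had an unadjusted p under 0.05.

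**Figure D2:**
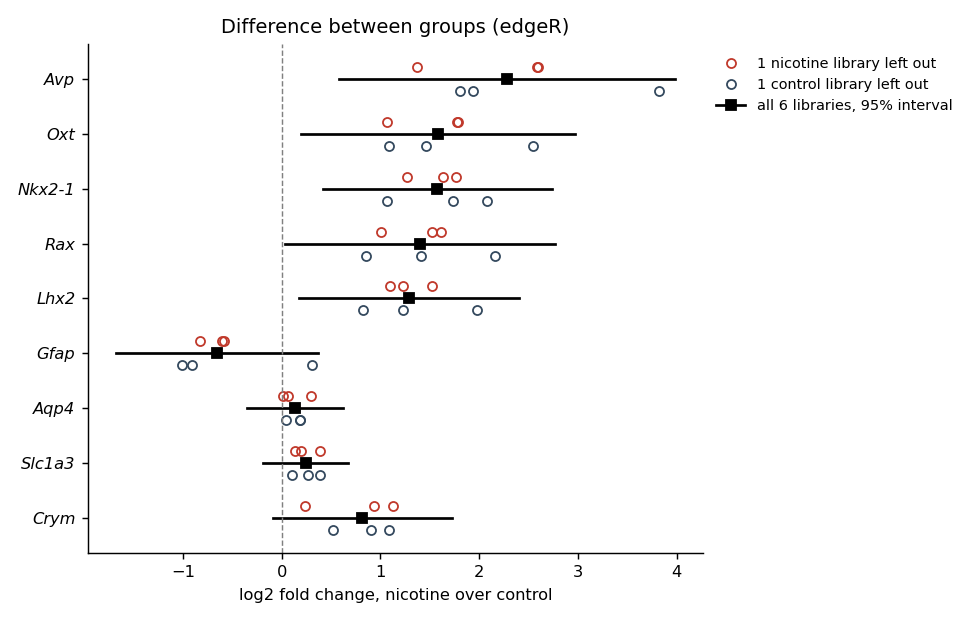
Log2 fold change of each gene, nicotine over control: the black square is the edgeR estimate from all 6 libraries with its 95% interval, and open circles are estimates with 1 nicotine (red) or 1 control (blue) library left out. Estimates for Avp run from 1.37 to 3.82, and Gfap moves from -0.66 to 0.31 when control 2 is left out.

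The rule that names the members uses symbols only, though earlier results of these data were known when it was written. Pearson's r and Spearman's rho of log2 CPM were computed over the 6 rats for all 36 pairs of members, with exact permutation p-values adjusted over the 36 pairs. All 10 pairs among Avp, Oxt, Nkx2-1, Rax and Lhx2 had r between 0.91 and 0.99 (adjusted p = 0.05 for each by the exact permutation test) and rho between 0.83 and 1. Rax and Nkx2-1 had the highest r, 0.99 (rho 0.94). Avp and Oxt had r = 0.97 and rho = 1 (exact permutation p = 0.00278 for both, the smallest possible). Without the 2 libraries farthest from the median of the first gene of a pair, r was between 0.69 and 1.00 for these 10 pairs, over 4 libraries. For the pairs with Avp or Oxt these 2 were control 2 and control 3. The highest library, nicotine 2, thus stayed in and weighed heavily on r. For the pairs among Nkx2-1, Rax and Lhx2, control 3 and nicotine 2 were left out, and r was 0.92 to 0.96. After the group means were taken out r lay between 0.84 and 1.00 for the 10 pairs, so that the covariation was also present within groups.

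Crym followed this set less closely, with r between 0.86 and 0.87 (adjusted exact permutation p from 0.0545 to 0.0647) and rho between 0.66 and 0.94. Its r with Nkx2-1 was 0.29 and that with Rax 0.41 when nicotine 2 and control 3 were left out, so these relations rest on those 2 libraries. Slc1a3 had r between 0.75 with Avp and 0.90 with Lhx2, where only the latter pair had an adjusted exact permutation p under 0.1, at 0.06. Without control 2 and control 3 the r of Slc1a3 was 0.22 with Avp and 0.23 with Oxt but 0.84 with Lhx2. Aqp4 had r between 0.05 and 0.13 with the 5 genes and Gfap had r between -0.44 and -0.10, with adjusted exact permutation p between 0.656 and 0.892. These values also depended on few libraries. Without control 2 and control 3, r of Aqp4 was 0.62 with Avp and with Oxt and 0.97 with Lhx2, and that of Gfap was 0.36 with Lhx2. Without control 3 and nicotine 2, r of Aqp4 was 0.13 with Nkx2-1 and -0.098 with Rax, and that of Gfap was -0.84 with Rax. Since different libraries were left out, these values do not compare Lhx2 with Rax or Nkx2-1. All points of these relations share their library and its depth, which was greatest in nicotine 2.

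**Figure D3:**
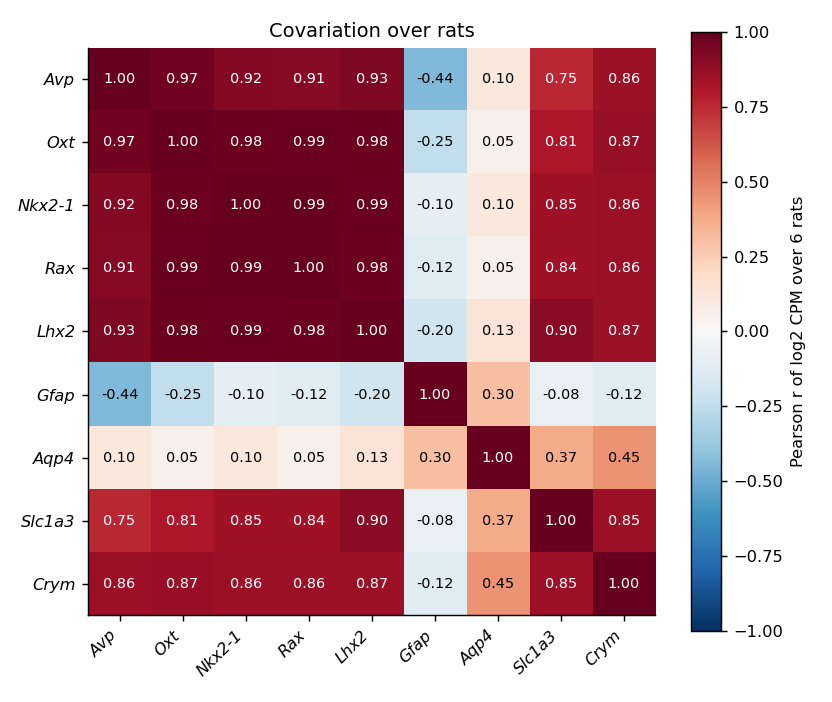
Pearson r of log2 CPM over the 6 rats for each pair of the 9 genes; colour runs from -1 (blue) to 1 (red). Avp, Oxt, Nkx2-1, Rax and Lhx2 form a block with r of 0.91 or more, Crym and Slc1a3 stand close to it, and Aqp4 and Gfap stand apart.

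Ratios within a library do not depend on its depth. For each library the counts of a gene were divided by the summed counts of Nkx2-1, Rax and Lhx2, a scale chosen after the values were seen; since counts are not per length, these ratios are compared between libraries only. The ratio of Oxt to the pituicyte factors was 2.80, 3.10 and 1.95 after nicotine and 2.46, 1.93 and 2.33 in controls. The level of Oxt thus spanned 27.7-fold, but its ratio to the pituicyte factors spanned 1.61-fold. Its mean log2 ratio was 1.36 ± 0.353 (SD, n = 3) after nicotine and 1.16 ± 0.185 (SD, n = 3) in controls. The difference of 0.204 was smaller than the SD of the nicotine group but not that of the control group (exact two-sided permutation test, p = 0.4).

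The ratio of Avp to the pituicyte factors was 3.06, 5.42 and 2.07 after nicotine and 2.55, 0.972 and 2.38 in controls. It spanned 5.57-fold, and the log2 means were 1.70 ± 0.699 (SD, n = 3) and 0.853 ± 0.776 (SD, n = 3), with overlapping groups (exact two-sided permutation test, p = 0.3). The same ratio for Slc1a3 was 4.08 to 6.50 after nicotine and 7.27, 11.9 and 53.3 in control 1, 2 and 3, and that for Aqp4 reached 8.15 in control 3 against 0.460 to 1.38 in the other 5 libraries. The groups did not overlap for the Slc1a3 ratio (exact two-sided permutation test, p = 0.1), whose denominator in control 3 rests on the 7, 11 and 25 counts of the 3 factors.

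The counts of the 2 hormone genes were also compared with each other. The ratio of Avp to Oxt counts was 1.09, 1.75 and 1.06 after nicotine and 1.04, 0.505 and 1.02 in controls. In 4 of the 6 libraries it lay between 1.02 and 1.09, control 3 included, while nicotine 2 was above and control 2 below. The log2 ratio was 0.34 ± 0.40 (SD, n = 3) after nicotine and -0.30 ± 0.59 (SD, n = 3) in controls, a difference of 0.64 without overlap (p = 0.1 by exact two-sided permutation). This difference was 0.30 without control 2 and 0.41 without nicotine 2, so it rested mainly on those libraries. The lack of overlap rested on 1.06 in nicotine 3 against 1.04 in control 1, a narrow gap whose counting error was not computed.

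Genes of similar pattern were sought among the genes with a mean of at least 5 CPM, by Pearson's r of log2 CPM over the 6 libraries. For Avp the closest were Igfbp2 (r = 0.99), an insulin-like growth factor binding protein gene, Ppp2r5d (r = 0.98) and Eif3d (r = 0.98). For Oxt they were Ppp1r1b (r = 0.99), which encodes the phosphatase inhibitor DARPP-32, Acsbg1 (r = 0.99), an acyl-CoA synthetase gene of glia, and Rax. For Rax they were Mpzl1 (r = 1.00), Fndc3c1 (r = 0.99) and Oxt. Of 11504 genes compared, between 100 and 112 had r over 0.9 with each of the 3 genes.

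The sizes of these parallel patterns differed. Ppp1r1b was at 26.2, 56.3 and 38.7 CPM after nicotine and 31.5, 14.8 and 4.23 CPM in controls, and Fndc3c1 was at 14.2, 30.0 and 25.9 CPM after nicotine and 21.5, 9.15 and 0.634 CPM in controls. Acsbg1 was at 21.9, 63.0 and 28.3 CPM after nicotine and 31.2, 14.8 and 4.07 CPM in controls. Mpzl1, by contrast, kept between 29.6 and 39.2 CPM in all 6 libraries. None of these genes was called in edgeR, with adjusted p between 0.771 and 0.861.

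Of 11 further pituicyte genes, all tested, 0 were called and 8 had a higher mean after nicotine. Their median log2 fold change was 0.39, against 0.01 over all genes tested. Col25a1, which encodes a transmembrane collagen, was at 6.30, 14.2 and 8.94 CPM after nicotine and 5.28, 3.40 and 0.925 CPM in controls, or 1.65 ± 0.48 (standard error) on the log2 scale with an edgeR adjusted p of 0.760. Srebf1, a regulator of lipid synthesis, differed by 0.62 ± 0.19 (standard error) on the log2 scale, with an edgeR adjusted p of 0.760. With Rax as reference, r over 0.9 was found for Col25a1, for Tbx3, a T-box factor gene, and for Fgf10, a growth factor gene of the infundibulum; the latter 2 were named after their values were seen. Tbx3 was at 1.11 CPM and Fgf10 at 1.88 CPM in control 3, against 3.52 to 8.84 and 9.10 to 13.9 CPM in the other libraries. The 3 most abundant of the list, Six6, Vim and Scn7a, had r between -0.35 and 0.63 with Rax.

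Receptors and enzymes that act on the hormones were measured as well. Avpr1b was not analysed here, and Avpr2, the renal vasopressin receptor gene, had at most 1 count per library. Of the 3 tested genes 0 were called. Avpr1a was at 0.423 to 1.11 CPM after nicotine and 0.812 to 1.53 CPM in controls, Oxtr at 0.281 to 0.912 and 0.295 to 0.475 CPM, and Lnpep, the oxytocin-cleaving peptidase gene, at 38.04 to 45.3 and 41.9 to 42.2 CPM. Of 6 genes for prohormone maturation 0 were called. Pcsk2, a convertase of endocrine and neural cells, was at 86.4, 136 and 119 CPM after nicotine and 140, 127 and 278 CPM in controls (-0.67 ± 0.29, standard error, on the log2 scale, edgeR adjusted p = 0.806), and its highest value was in control 3, where Avp and Oxt were lowest. Cpe, Pam and Scg5, the most abundant of the list, differed by 0.01, 0.10 and -0.19 on the log2 scale.

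Other cell types were read in the same libraries. Of 14 further astroglial genes 0 were called, with a median log2 fold change of 0.21 and 10 higher. Glul, Aldoc and S100b, the most abundant, had r between -0.03 and 0.30 with Rax, and Sox9, named after its values were seen, was the only one with r over 0.9. Nes, an intermediate filament gene of progenitors and vessels, differed by 1.04 ± 0.35 (standard error) on the log2 scale, with an edgeR adjusted p of 0.760.

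Some myelin genes, but not all, were highest in the same library as Gfap. Mbp, the gene of myelin basic protein, was at 16.7, 20.8 and 18.7 CPM after nicotine and 12.7, 61.4 and 23.2 CPM in controls. The ratio of Mbp to Gfap counts lay between 3.11 and 4.94 in all 6 libraries, a 1.59-fold range, while Gfap itself spanned 4.77-fold. Of 11 oligodendrocyte lineage genes 7 were tested and 0 called, with a median log2 fold change of -0.54. Cnp, a myelin enzyme gene and the most abundant of the list, did not follow Gfap (r = -0.0091) and was highest in nicotine 2, at 57.7 CPM against 45.7 CPM in control 2. Mobp, a myelin gene named after its values were seen, was at 4.33 CPM in control 2 and 0.0760 to 1.12 CPM elsewhere. The lineage factor Sox10 lay between 0.258 and 1.14 CPM (log2 fold change 1.15, edgeR adjusted p = 0.798), and Pdgfra, a gene of oligodendrocyte precursors and fibroblasts, was at 6.48 to 11.5 CPM after nicotine and 11.4 to 17.9 CPM in controls (log2 fold change -0.79, edgeR adjusted p = 0.760). The summed level of this list was 76.2 to 99.6 CPM after nicotine and 82.5 to 158 CPM in controls, and its part in the difference of Gfap was not tested. Without control 2 the log2 fold change of Gfap was 0.31.

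The intermediate lobe adjoins the posterior lobe, and its melanotrophs express Pax7, Pomc and Pcsk2. All 6 genes of the melanotroph list were tested, 0 were called, and all 6 had a lower mean after nicotine, with a median log2 fold change of -0.69. Pax7, the melanotroph selector gene, described after its values were seen, was at 12.5, 47.9 and 18.8 CPM after nicotine and 18.5, 25.7 and 93.6 CPM in controls. Its 2 highest libraries, control 3 and nicotine 2, were the lowest and the highest in Rax. Pomc was at 27330, 20412 and 46404 CPM after nicotine and 45091, 36103 and 71827 CPM in controls. Drd2, the dopamine receptor gene of melanotrophs and lactotrophs, lay between 71.7 and 155 CPM and was also highest in control 3. Tbx19, a T-box factor gene of melanotrophs and corticotrophs also named after its values were seen, was instead highest in nicotine 2, at 85.4 CPM against 74.0 CPM in control 3, with a log2 fold change of -0.0026. The summed level of the list was 20845 to 46762 CPM after nicotine and 36427 to 72629 CPM in controls. Nearly all of this sum was Pomc, which the list of anterior lobe hormone genes also holds. Pomc was lowest in nicotine 2, whereas the other genes of the melanotroph list were lowest in nicotine 1. The part of this list in the differences of the posterior lobe genes was not tested.

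**Figure D4:**
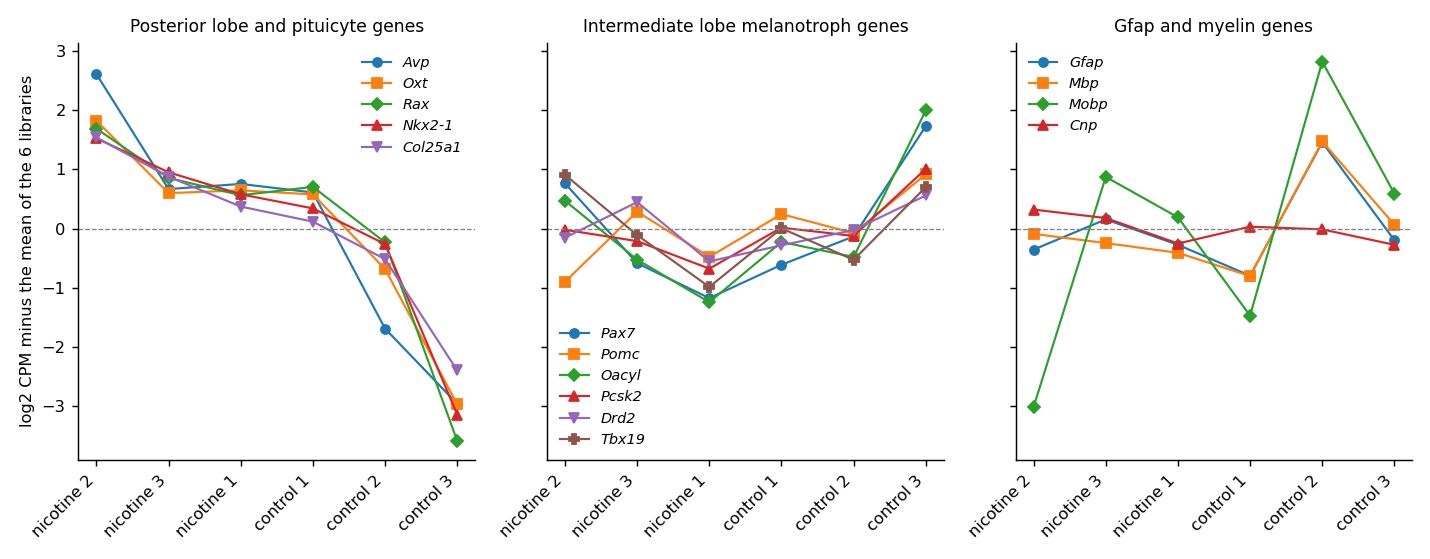
Log2 CPM of 5 selected posterior lobe genes (left), all 6 genes of the melanotroph list (middle) and Gfap with 3 selected myelin genes (right). Each gene is shown minus its mean over the 6 libraries, and lines only join the points of a gene. Libraries are ordered by the level of Nkx2-1, itself a posterior lobe gene. A trend along this order is thus partly built in for genes that follow Nkx2-1. Control 3 is lowest for all 5 genes on the left and highest for 5 of 6 in the middle, Tbx19 being highest in nicotine 2. The 5 genes on the left do not stand for all pituicyte genes. Over the 11 further pituicyte genes r with Rax ran from -0.35 to 0.98, with a median of 0.63. Control 2 is highest for Gfap, Mbp and Mobp on the right, whereas Cnp is highest in nicotine 2.

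Hypothalamic neurons are the known source of Avp and Oxt mRNA. Of 15 hypothalamic neuron genes 7 were tested and 0 called, with a median log2 fold change of 0.23. The defining factors of the vasopressin and oxytocin neurons, singled out after their counts were seen, were near 0, with at most 4 counts of Sim1, 14 of Otp and 18 of Pou3f2 per library, the latter 2 maxima in nicotine 2. The 3 most abundant genes of the list, Cartpt, Pdyn and Slc17a6, are also expressed by other cells. Cartpt, a neuropeptide gene, was at 17.8 CPM in nicotine 2 against 92.6 to 182.8 CPM elsewhere. The list's summed level was 104 to 229 CPM after nicotine and 165 to 237 CPM in controls. It was lowest in nicotine 2, where Cartpt, a large part of the sum in the other libraries, was lowest too. Pdyn was at 59.5 CPM there against 23.3 to 84.1 CPM elsewhere, and Slc17a6 at 13.9 against 9.40 to 11.2 CPM. Npy and Agrp, named after their values were seen, were also lowest in nicotine 2.

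Of 10 general neuron genes 0 were called and 9 had a higher mean after nicotine, with a median log2 fold change of 0.25. Nefl, a neurofilament gene, had a log2 fold change of 1.08 (standard error 0.34), Nefm of 0.71 (0.30) and Tubb3 of 0.36 (0.15), with adjusted p between 0.760 and 0.806 from edgeR. The summed level of the list was 680 to 852 CPM after nicotine and 614 to 654 CPM in controls, without overlap, and its part in the differences of Avp and Oxt was not tested. Snap25 and Map2, the most abundant beside Tubb3, differed by 0.06 and 0.18 on the log2 scale, and 0 of the 10 genes had r over 0.9 with Rax.

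Capillary and anterior lobe genes completed the comparison. Of 7 endothelial genes 0 were called and 6 had a higher mean after nicotine, with a median log2 fold change of 0.41; Plvap, the diaphragm gene of fenestrated capillaries, had 0.71 (standard error 0.21), Pecam1 0.83 (0.23), Kdr 0.44 (0.19) and Emcn, a sialomucin gene, 0.20 (0.28). The 7 folliculostellate genes had a median of 0.13 and 0 calls, with 0.13 for S100b, 0.36 for Capn6 and -0.10 for Cxcl14, the most abundant. Of 7 anterior lobe hormone genes 0 were called, with a median of 0.38. Lhb, the gene of the luteinizing hormone beta subunit, was at 216, 820 and 223 CPM after nicotine and 154, 75.6 and 125 CPM in controls (1.83 ± 0.48, standard error, on the log2 scale, edgeR adjusted p = 0.760), again highest in nicotine 2. Summed levels were 172 to 282 and 143 to 190 CPM for the endothelial list, 334 to 456 and 359 to 387 CPM for the folliculostellate list and 113538 to 176311 and 145909 to 159504 CPM for the hormones, after nicotine and in controls respectively. Their part in the differences of the posterior lobe genes was not tested.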

How the data were processed

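Total RNA of pituitary glands from 3 nicotine and 3 control rats was sequenced as paired-end stranded libraries. Per the labels and the study's methods, the authors mapped reads to rn7 with HISAT2 2.1.0 and deposited whole-number counts per gene symbol from featureCounts with the UCSC ncbiRefSeq annotation. The counts were not normalized. Strand setting, reads with several hits and the counting of pairs are not given in the sources used here.

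The deposited counts were analysed in R 4.3.3 with edgeR 4.0.16 (TMM, filterByExpr, quasi-likelihood test), limma 3.58.1 and DESeq2 1.42.0. Log2 CPM used a prior count of 2, and the ratios had 0.5 added to each count. Depth ranged from 28318383 to 85977002 counts. In simulated counts of 17292 genes at these depths, edgeR recovered 40% of changed genes at a log2 fold change of 1 and 90% at 2, with 21 false calls. The 200 changed genes were drawn at random from all genes tested. These shares therefore do not apply to Avp, Oxt, Nkx2-1, Rax and Lhx2, whose spread lay in the top 1% of genes. Alternatives were DESeq2, RLE factors, library totals alone, an unfiltered table, a minimum of 10 counts per library, the older fit, voom with quality weights, thinning, leaving out genes over 1% of counts, other thresholds, a replicate block, and leaving out libraries.

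Members and lists were chosen with earlier results of these data known, and lists come from general knowledge. Of each list the text names genes with an unadjusted p under 0.05 and the 3 most abundant; for Avp, Oxt and Rax it names the 3 genes of highest r among genes of at least 5 CPM. One gene that this rule names is not reported here. Other genes are marked as chosen after their values were seen. RefSeq (GRCr8) held symbols for all 9 members and promoters for 8. Amino acid sequences were not used here.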

Additional observations from a re-analysis of the deposited data

How the results depend on the processing

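The number of members called stayed at 0 under each alternative run, where their adjusted p lay between 0.482 and 1.00. The number of members with an unadjusted p under 0.05 was 5, against 1 with DESeq2 (Avp), 3 with at least 10 counts in every library (a filter that removed Nkx2-1), 1 without nicotine replicate 2 and control replicate 3 together, and 1 to 7 with 1 library left out. With the replicate number as a block it was 5. Deviations of same-numbered libraries correlated at 0.03, -0.20 and -0.08, and those of differently numbered libraries at -0.16 to 0.20. With 3 libraries per group these values cannot show whether same-numbered rats were paired. With the block 0 members were called. Of 152 comparisons of a member's log2 fold change with an alternative, 150 kept direction and side of the threshold. The 2 that reversed were Gfap, at 0.31 without control replicate 2, and Crym, at -0.062 without nicotine replicate 2 and control replicate 3. With 1 library left out Gfap lay between -1.005 and 0.31, and Crym between 0.23 and 1.13. The difference of the log2 ratio of Avp to Oxt lay between 0.30 and 0.82 with 1 library left out. Of 36 pairs of members 20 had r over 0.8, against 16 to 21 in the alternatives. Over all genes edgeR called 0 and DESeq2 62. Values of Rax, Nkx2-1 and Lhx2 in control 3 rest on 7 to 25 counts.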

Other observations

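Prodynorphin and galanin are peptide genes that vasopressin neurons also express. Pdyn was at 23.3, 59.5 and 36.6 CPM after nicotine and 44.1, 32.2 and 84.1 CPM in controls, so that its highest value was in control 3, the library lowest in Avp. Gal, named after its values were seen, was highest in nicotine 2, as Avp was, and lowest in nicotine 1. It was at 2.65, 7.81 and 5.06 CPM after nicotine and 4.21, 3.14 and 3.28 CPM in controls. Neither was called (adjusted p = 0.849 and 0.827 from edgeR).

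In nicotine 2, the library highest in Avp and Oxt, a few brain transcripts were counted that were nearly missing elsewhere. Pmch, the melanin-concentrating hormone gene of lateral hypothalamic neurons, had 39 counts in nicotine 2 and 0 or 1 in each of the other 5 libraries. Olig2 had 13 counts there and 0 or 1 elsewhere, and Olig1 had 53, against 14 in control 2 and 0 or 1 elsewhere. Other genes of the same lists went the other way. Mag had 2 counts in nicotine 2 and 19 in control 2, Mog 12 and 13, and Trh 3 and 10. Hcrt had 1 count in nicotine 2 and 5 in nicotine 3. Nicotine 2 was also the deepest library, and these genes, picked after their counts were seen, were below the filter and were not tested.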
